A study of Homo sapiens with 4 samples.

Results

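Interferon-stimulated genes were examined in 2 lymphoma lines of human B cells, each beside its rituximab-resistant subline. The set is a list of 44 genes, from antiviral effectors such as the IFIT, OAS and MX families to ISG15, its enzymes and interferon-induced membrane proteins. Members were taken from the array annotation where a probe set carried exactly 1 gene symbol, and all 44 were found, on 85 of the 41091 probe sets with a single symbol and among 19775 genes in all. Where several probe sets read a gene, the one brightest on average over all arrays stood for it. Jeko-1 cells come from a mantle cell lymphoma and were not given rituximab, and Jeko-1/R is its subline treated with rituximab, an antibody against the B-cell surface protein CD20. Raji is a Burkitt lymphoma line without rituximab treatment, and Raji/R is its rituximab-treated, resistant subline. The labels do not say how resistance was selected, whether a subline was 1 clone, or whether the antibody was present when RNA was taken. There was 1 array per group and no replicate, so values of a resistant array over its parent are given without a test, and 2-fold was the size that counted as changed.

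Interferons signal through cell surface receptors and the kinases JAK1 and TYK2. The signal ends at interferon-stimulated response elements in the promoters of target genes, where IRF9 takes part in binding. The proteins made from these genes recognise viral nucleic acid, block translation of viral RNA, tag proteins with the ubiquitin-like modifier ISG15, or alter membranes that viruses use. B cells carry these genes at a basal level that differs between cell lines, and part of that level persists without added interferon.

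Signals are in the arbitrary units of the array software. Anything under 77.5, the pooled median of all values, was set to 77.5, called the floor here. Where 1 of the arrays in a ratio lay under it, the true difference may be larger, and the fold is given as "at least". Of the 44 members, 38 reached the floor in Jeko-1 and 37 in its subline, against 31 in Raji and 30 in Raji/R. These were 86.4%, 84.1%, 70.5% and 68.2% of the members, beside 56.4%, 56.1%, 61.6% and 69.0% of all genes on the same arrays. IFIT1, which binds viral RNA that lacks host cap methylation, and GBP1, a guanylate-binding protein, stayed below the floor on all 4 arrays by the probe set that stood for them. Another GBP1 probe set reached it in Raji, at 99.1. IFIT1 read 4.05 and 3.37 on the Jeko-1 and Jeko-1/R arrays, then 6.66 for Raji with 5.94 for its subline. RSAD2, the gene of the antiviral enzyme viperin, reached the floor only in Raji/R, at 132, beside 4.88 in its parent and 40.4 and 30.6 in the Jeko-1 pair. The Raji/R array had a median log2 signal of 6.59, beside 6.11 to 6.18 on the others. On it 55.6% of all probe sets reached the floor, beside 48.0% to 48.3%, and the part of this shift in the values of low genes was not tested.

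**Figure D1:**
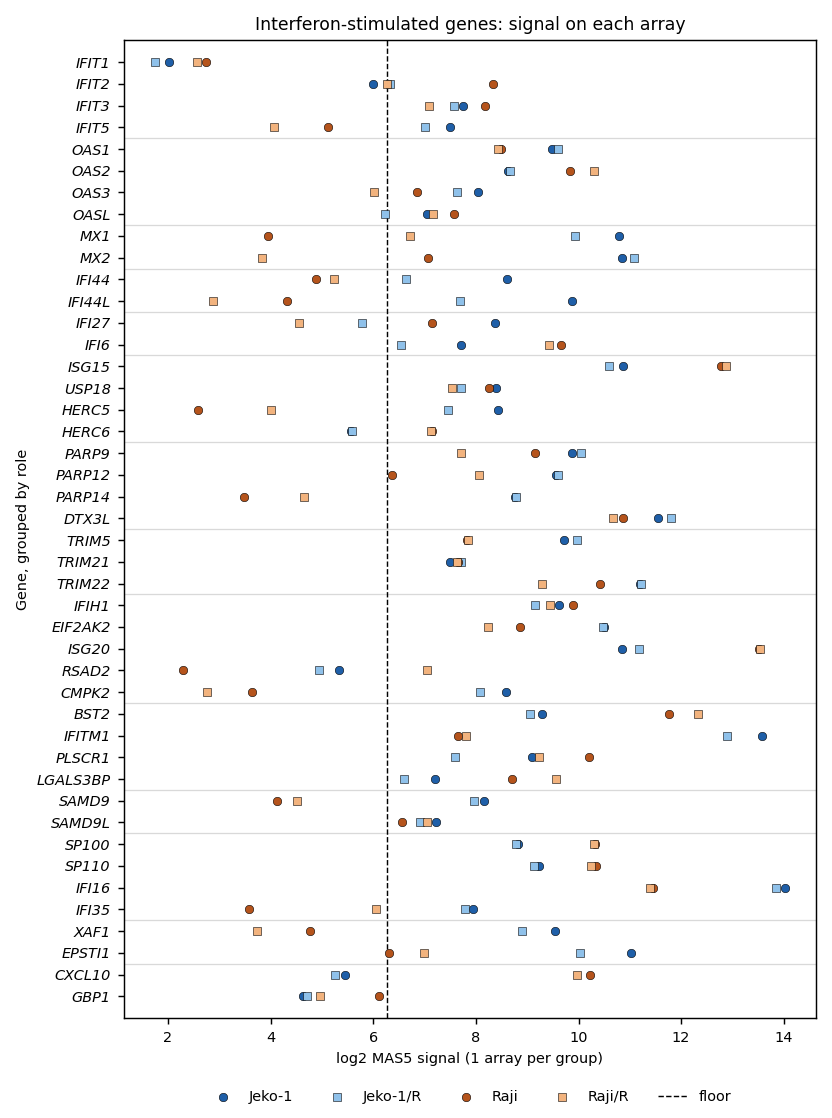
The horizontal axis gives the log2 signal of the brightest probe set of each of the 44 genes, grouped by role, with 1 point for each of the 4 arrays and a dashed line at the floor. MX1, MX2, IFITM1 and XAF1 lie far apart between the Jeko-1 arrays and the Raji arrays, while IFI44L and IFI44 also lie apart between Jeko-1 and Jeko-1/R.

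The basal level was compared first, as Jeko-1 against Raji. The members did not run in 1 direction: 19 were at least 2-fold higher in Jeko-1 and 11 at least 2-fold higher in Raji, of 41 measured. Over all genes, 22.4% were at least 2-fold higher in Jeko-1 and 26.4% at least 2-fold lower. The median log2 ratio of Jeko-1 over Raji was 0.78 for the members and -0.27 for all genes, and with a signal-dependent lowess adjustment these were 0.96 and -0.08. Of the 28 members above the floor on both arrays, 9 were at least 2-fold higher in Jeko-1 and 9 at least 2-fold lower, with a median of 0.39. The share over all genes above the floor on both arrays was not computed. The members higher in Jeko-1 included both MX genes, both IFI44 genes, XAF1 and EPSTI1, and those higher in Raji included CXCL10, ISG20, BST2, ISG15 and IFI6. OAS2 was counted as higher in Raji, at -1.20, but its other probe sets gave -1.62 and 2.58, so its direction is uncertain.

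IFITM1, a membrane protein that hinders virus entry, read 12235 in Jeko-1 and 7555 in its subline, but 202 and 223 on the parental and resistant Raji arrays. It was 60.7-fold higher in Jeko-1 than in Raji. Its probe set is of the s_at type, which may also bind transcripts of related genes. EPSTI1, a gene first described in the epithelial response to stroma, read 2070 and 1047 on the Jeko-1 arrays, parent first, and 79.6 and 127 on the Raji arrays. The dynamin-like antiviral GTPase MX1 gave 1780 and 978 on the Jeko-1 arrays against 15.5 and 105 on the Raji arrays, parent first in each, a log2 ratio between parents of at least 4.52. Its neighbour MX2, whose protein acts at the nuclear pore, gave 1846 and 2171 against 135 and 14.3. For each of these genes the lower Jeko-1 array lay above the higher Raji array. This held for 22 of 42 members, beside 29.7% of all genes, counted after values below the floor were raised to it. Among these 22, IFIT5, IFI44, IFI44L, HERC5, PARP14, CMPK2, SAMD9, IFI35 and XAF1 had both Raji arrays below the floor by the probe sets used. They entered through the Jeko-1 arrays only, so their lack of overlap is no support for a difference. The 29.7% was counted with the same filter.

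IFI44L gave 935 and 206 against 20.1 and 7.39 in the same order, and IFI44 gave 391 and 99.6 against 29.7 and 37.7. IFI44L was at least 12.1-fold and IFI44 at least 5.05-fold higher in Jeko-1 than in Raji. XAF1, which binds the apoptosis inhibitor XIAP, gave 746 and 478 against 27.3 and 13.4 and was at least 9.63-fold higher in Jeko-1. Both Raji arrays were below the floor for these 3 genes by these probe sets. The second IFI44 probe set, also below the floor on both Raji arrays, gave a log2 ratio of at least 0.97, just under the 2-fold call. Another XAF1 probe set read 95.0 and 94.6 on them and gave a Jeko-1 over Raji log2 ratio of -0.29, and the mean of the XAF1 probe sets gave 1.74 in place of 3.27. PARP12, a mono-ADP-ribosyltransferase, gave 758 and 774 against 82.2 and 267, and its relative PARP14 gave 436 and 440 against 11.2 and 25.1. The DNA sensor IFI16 gave 16625 and 14832 in the Jeko-1 arrays and 2812 and 2686 in the Raji arrays. CMPK2, a mitochondrial nucleotide kinase, gave 385 and 270 against 12.4 and 6.74, and HERC5, the ligase that attaches ISG15, gave 344 and 175 against 6.00 and 16.2. In all of these the parental Raji array stood below the parental Jeko-1 array, and for PARP14, CMPK2 and HERC5 both Raji arrays were below the floor by these probe sets. The second PARP14 probe set read 97.9 and 167 on the Raji arrays and gave -0.34, and the mean of both gave 0.83, where the 2-fold call is lost.

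CXCL10, a chemokine that attracts T cells, ran the other way, with 1197 and 1006 on the Raji arrays, while both Jeko-1 arrays were below the floor. It was at least 15.4-fold higher in Raji than in Jeko-1. The RNA exonuclease ISG20 gave 1847 and 2303 against 11754 and 11876. BST2, the protein that tethers budding virus, gave 629 and 532 against 3466 and 5162. ISG15 gave 1880 and 1541 against 7001 and 7513, and the mitochondrial protein gene IFI6 gave 208 and 92.7 against 804 and 690. For these 5 genes both Raji arrays lay above both Jeko-1 arrays, as they did for 12 of 42 members and for 42.3% of all genes. Among the 12, CXCL10 and HERC6 entered through the Raji arrays only, so their lack of overlap is no support for a difference. IFIT2, which binds RNA and promotes apoptosis, did not hold to this pattern: it stood at 63.5 and 80.3 on the Jeko-1 arrays and at 324 and 77.6 on the Raji arrays, so that only the parental Raji array was high.

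The same difference between lines was read on the resistant sublines, which share no array with the parents. Of the 19 members at least 2-fold higher in Jeko-1 than in Raji, 16 were also at least 2-fold higher in Jeko-1/R than in Raji/R (84.2% of the 19 and 80.0% of the 20 higher among sublines). The exceptions were IFIT5, IFI44 and IFI27. Of the 11 that were lower, 10 were lower among the sublines, and IFIT2 was the exception. Of all genes past 2-fold between the parents, 89.7% of the higher and 83.7% of the lower ones were so among the sublines, so the members' shares were near the background. Over all genes the shares at least 2-fold higher and lower in Jeko-1/R against Raji/R were 22.2% and 31.2%. OAS1, PARP9, DTX3L and TRIM22 were at least 2-fold higher only among the sublines. In the parents these 4 had log2 ratios of 0.99, 0.71, 0.67 and 0.78.

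**Figure D2:**
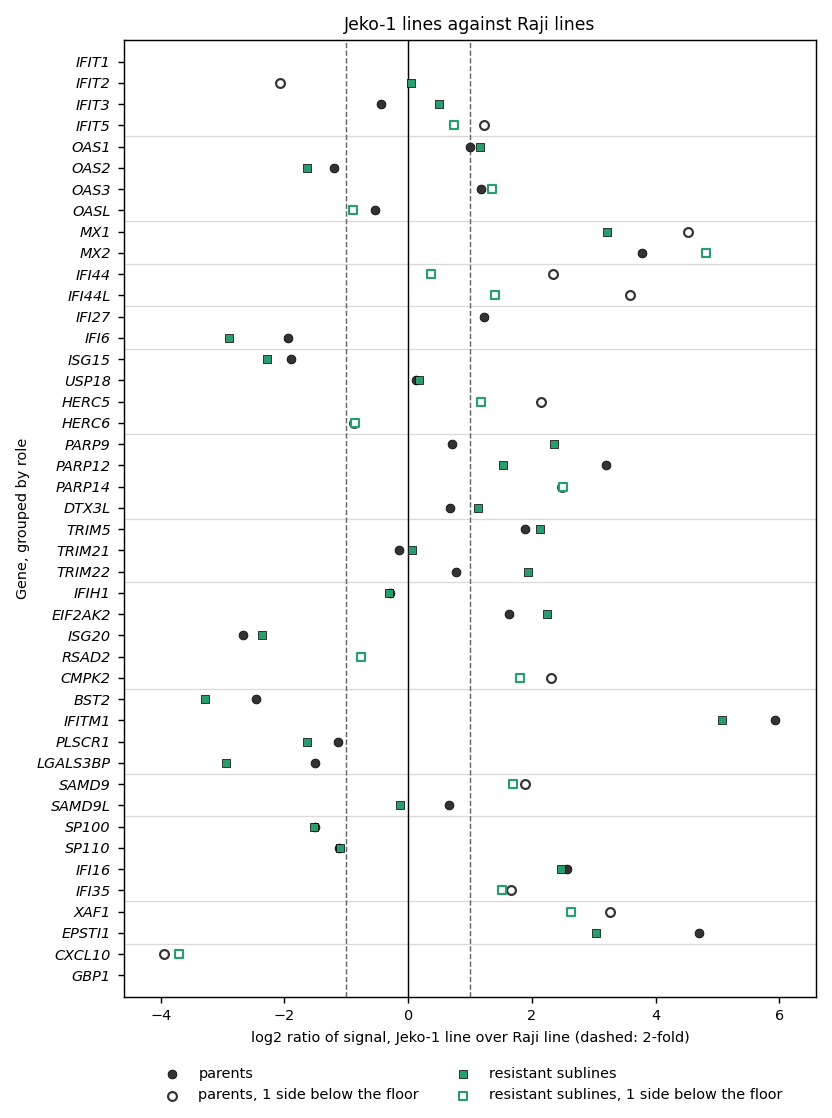
The horizontal axis gives the log2 ratio of a Jeko-1 line over a Raji line for each gene, with circles for the parents, squares for the resistant sublines and open symbols where 1 side was below the floor. Most circles and squares of a gene lie on the same side of 0, with IFITM1 farthest to the right and CXCL10 farthest to the left, while the symbols of IFIT2 lie far apart.

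A limma fit over 15575 genes with cell line and resistance as terms used all 4 arrays. It took parent and subline as 2 arrays of a line, so its p-values compare these lines and not kinds of lymphoma. The cell line term passed an adjusted p of 0.05 (Benjamini-Hochberg over all genes) for 34 of 42 members, 22 higher and 12 lower in the Jeko-1 arrays. Of all genes 53.4% passed, 23.3% higher and 30.1% lower. Values below the floor were raised to it before the fit. For IFIT5, IFI44, IFI44L, HERC5, PARP14, CMPK2, SAMD9, IFI35 and XAF1 both Raji arrays were below it by the probe sets used. For CXCL10 and HERC6 both Jeko-1 arrays were. These members entered through the higher line only and had no spread in the other, so their p-values are no support for a difference. IFITM1 had a log2 difference of 5.50 ± 0.29 (SE) with an adjusted p of 3.2e-05 in limma. MX2 stood at 4.29 ± 0.31 and CXCL10 at -3.82 ± 0.25. The difference of IFIT2 was -1.01 ± 0.47, with an adjusted p of 0.12 in limma. IFI27, USP18, IFIT3, IFIH1, SAMD9L, TRIM21 and RSAD2 were the other members that did not pass.

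The promoter sequences of these genes were read from RefSeq (GRCh38.p14), where 38 of the 44 members had an entry of 250 bases before and 50 bases after a start. IFIT2, MX2, OAS2, OASL, TRIM22 and USP18 had none. The letters searched were GAAA, any 2 bases and GAAA again, on both strands, which are the core of the interferon-stimulated response element. They occurred before the start in 26 of the 38 members (68.4%) and in 3.71% of 27305 genes, and counted by start in 57.7% of 52 member promoters and 3.02% of all 35116. The letters TTCNNNGAA of the gamma-activated site, read the same on both strands, occurred before the start in 9 of 38 members (23.7%) and in 8.09% of all genes. The letters GAAA and GAAA were found in 13 of 18 members higher in Jeko-1, in 7 of 9 higher in Raji and in 3 of 8 within 2-fold. The stretches below are shown for 2 members that were higher in the Jeko-1 arrays and 3 that were higher in the Raji arrays, so that a reader can compare the sites of genes that differed in opposite directions. Each is printed in the direction of its gene, with the matched letters in capitals.
IFITM1, chr11:313980-314029, plus strand: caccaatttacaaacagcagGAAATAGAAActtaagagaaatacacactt
EPSTI1, chr13:42992262-42992311, minus strand: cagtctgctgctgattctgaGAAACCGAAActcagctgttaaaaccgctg
CXCL10, chr4:76023689-76023738, minus strand: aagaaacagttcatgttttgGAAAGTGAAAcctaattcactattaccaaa
ISG20, chr15:88638927-88638976, plus strand: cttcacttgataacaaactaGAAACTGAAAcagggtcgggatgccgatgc
ISG15, chr1:1013364-1013419, plus strand: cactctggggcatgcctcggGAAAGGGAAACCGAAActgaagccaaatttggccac
The matches end 30 bases before the start in IFITM1, 40 in EPSTI1, 59 in ISG20, 97 in ISG15 and 211 in CXCL10. In ISG15 2 matches overlap, which makes 1 longer run of capitals. Matches of the same kind thus stood before genes higher in either line.

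Within the mantle cell line, the question was which members were lower in the resistant subline. In Jeko-1/R 5 genes were below its parent by 2-fold or more: IFI44L, IFI44, IFI27, PLSCR1 and IFI6. They were 5 of 39 measured members (12.8%), beside 0.595% of all genes at least 2-fold lower, and 0 members were at least 2-fold higher, beside 0.38% of all genes. Members below a log2 ratio of 0 numbered 27 and those above it 12, with a median of -0.24, while the median of all genes was 0.00. As a stand-in for error, different probe sets of a gene varied in this log2 ratio with an SD of 0.27 over 5850 genes. This covers differences between probe sets and not between cultures.

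IFI44L, whose protein curbs the interferon response, went from 935 to 206, and IFI44, its neighbour on the chromosome, from 391 to 99.6. These are log2 ratios of -2.18 and -1.97. With low values raised to the floor, that of IFI44L was the lowest of all 11588 genes measured in this pair. IFI27, a mitochondrial protein gene that responds strongly to type I interferon, went from 331 to a value of 55.1 below the floor, so it was at least 4.27-fold lower. With a floor at the 25th percentile IFI27 stood at -2.59, below the -2.18 of IFI44L, so the rank of IFI44L rests on the floor. IFI6, of the same small hydrophobic family, went from 208 to 92.7 (-1.17). With quantile normalization IFI6 stood at -0.99, and with a pseudocount in place of the floor at -0.95, so its call is lost there. PLSCR1, a phospholipid scramblase that limits virus entry, went from 543 to 193 (-1.49), and its other measured probe set gave -0.87. The call of PLSCR1 is lost with the mean of its probe sets (-0.39) and with a floor at the 75th percentile (-0.56). The mean includes a further probe set below the floor in both arrays, at 11.6 and 11.8. The call of IFI44 is lost without s_at probe sets, which leaves a value of -0.97. That value is a bound: the signal went from 152 to 54.5, below the floor, so the loss of the call rests on the floor.

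Several members lay close to the 2-fold line. EPSTI1 stood at -0.98 (second probe set -0.59), HERC5 at -0.97 and MX1 at -0.86. OASL, an OAS relative that enhances RNA sensing, went from 132 to 75.5, just below the floor, while its other probe set went from 81.0 to 85.4 (0.08). IFITM1 stood at -0.70, the ISG15 protease USP18 at -0.68, XAF1 at -0.64 and the secreted glycoprotein gene LGALS3BP at -0.59. The nucleotide kinase CMPK2 had -0.51, IFIT5 -0.48, the RNA sensor IFIH1 -0.46 and OAS3 -0.40. ISG15 itself, at -0.29, differed by little more than the spread between probe sets.

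Other families stood near 0. The genes PARP9, PARP12, PARP14 and DTX3L, whose products add or read ADP-ribose and ubiquitin, had log2 ratios between 0.01 and 0.27. TRIM5, TRIM21 and TRIM22, ubiquitin ligases that restrict viruses, lay between 0.02 and 0.25. The nuclear body genes SP100 and SP110, together with IFI16 and IFI35, lay between -0.16 and -0.03. OAS1 (0.12), OAS2 (0.04), MX2 (0.23), ISG20 (0.32) and the kinase gene EIF2AK2 (-0.01) were within 2-fold as well. The lower members were therefore a subset of the set, and neighbouring genes did not always move alike: MX1 and MX2 stood at -0.86 and 0.23.

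The promoter stretches of these 5 genes are shown because each held the GAAA letters before a start, as did 17 of 28 members with a promoter entry that stayed within 2-fold.
IFI44L, chr1:78620355-78620404, plus strand: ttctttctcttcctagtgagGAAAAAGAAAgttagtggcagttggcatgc
IFI44, chr1:78649751-78649788, plus strand: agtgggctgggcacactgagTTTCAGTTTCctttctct
IFI27, chr14:94110608-94110670, plus strand: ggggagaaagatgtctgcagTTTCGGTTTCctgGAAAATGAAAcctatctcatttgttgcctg
IFI6, chr1:27672256-27672327, minus strand: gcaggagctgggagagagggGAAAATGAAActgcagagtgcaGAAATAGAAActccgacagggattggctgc
PLSCR1, chr3:146544657-146544706, minus strand: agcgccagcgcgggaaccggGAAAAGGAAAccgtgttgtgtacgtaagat
Capitals mark the match, which runs as TTTC and TTTC where it lies on the opposite strand. The IFI27 stretch holds 1 match on each strand and the IFI6 stretch 2 on the same strand. IFI44, IFI27 and PLSCR1 have 2 starts each in the table, and the stretch before the more upstream start is shown. IFI44L and IFI44 lie next to each other with 0 protein-coding genes between them.

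In the Burkitt pair a different group of 4 genes was at least 2-fold lower in the subline, IFIT2, PARP9, TRIM22 and IFIT3, and PARP12 was at least 2-fold higher. The lower genes were 4 of 33 measured members (12.1%), beside 2.64% of all genes, and the higher gene was 1 of 33 (3.03%), beside 7.01% of all genes. With quantile normalization the shares of all genes were 5.10% lower and 5.91% higher, and with the lowess adjustment 5.47% and 2.40%. Members below 0 numbered 21 and those above it 12, with a median of -0.07 beside 0.08 for all genes. The spread between probe sets of a gene was wider than in the other pair, with an SD of 0.56 over 6850 genes.

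IFIT2 went from 324 in Raji to 77.6 in Raji/R, at the floor, a log2 ratio of -2.06. IFIT3, the stabilising partner of IFIT1, went from 290 to 135 (-1.10), but its other probe set went from 233 to 255 (0.13). With quantile normalization IFIT3 stood at -0.02, but there the brightest probe set was chosen again and may be the other one. With the mean of probe sets IFIT3 stood at -0.48 and IFIT2 at -0.85. PARP9, which forms a complex with DTX3L, stood at 573 and then 209 (-1.45), while a second probe set gave -0.55. Without probe sets of the x_at and s_at types that -0.55 is the value of the gene. TRIM22 went from 1367 to 622 (-1.14), from its single probe set.

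PLSCR1 stood just inside the 2-fold line, from 1186 to 598 (-0.99), and its other measured probe set went from 282 to 109 (-1.37). OASL had -0.41 from its brightest probe set and -1.09, as a bound, from the other. IFI27 went from 142 to 23.6 and MX2 from 135 to 14.3, both from above to below the floor, lower by at least 1.83-fold and 1.74-fold. Both passed 2-fold with quantile normalization (-1.14 and -1.06), the lowess adjustment (-1.41 and -1.29), a floor at the 25th percentile (-2.58 and -2.67) and a pseudocount (-1.64 and -1.85). USP18 stood at -0.73, EIF2AK2 at -0.62, OAS3 at -0.57 as a bound and IFIH1 at -0.45. The levels behind most of these values were low, and the floor hid the size of the IFI27 and MX2 differences.

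Among the members above 0, PARP12 went from 82.2, just above the floor, to 267 (1.70). LGALS3BP went from 419 to 753 (0.85), EPSTI1 from 79.6 to 127 (0.68), BST2 from 3466 to 5162 (0.57) and OAS2 from 909 to 1268 (0.48). Other probe sets of OAS2 gave 0.27 and 0.67. Of the other members with high signals in Raji, ISG20 stood at 0.01, ISG15 at 0.10, IFI16 at -0.07, DTX3L at -0.19, SP110 at -0.11 and SP100 at -0.02. CXCL10, high in Raji, stood at -0.25. IFI44L, IFI44, HERC5, XAF1, CMPK2, PARP14, SAMD9, IFIT5 and IFI35 were below the floor in both Raji arrays by the probe sets used, so they have no ratio in this pair. Other probe sets were measured there for PARP14 (0.77) and XAF1 (-0.01).

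For the Raji/R pair the promoter stretches of IFIT3 and PARP9, lower in Raji/R, and of PARP12, higher in Raji/R, are shown, since the same letters stood before genes that differed in opposite directions. PARP9 has 2 starts, the letters stand only before the more downstream one, and 30 bases are shown.
IFIT3, chr10:89327855-89327904, plus strand: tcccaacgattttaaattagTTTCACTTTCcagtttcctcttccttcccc
PARP9, chr3:122564322-122564351, minus strand: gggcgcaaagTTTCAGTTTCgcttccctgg
PARP12, chr7:140062952-140062981, minus strand: tttcgccggcccggggccgcTTTCGGTTTC
All 3 matches lie on the opposite strand, with TTTC and TTTC in capitals, and the PARP12 match ends 0 bases before the start. PARP9 and DTX3L lie next to each other with 0 protein-coding genes between them. In Raji/R they stood at -1.45 and -0.19, and in Jeko-1/R at 0.19 and 0.27. IFIT2 and IFIT3 are neighbours too and were both lower in Raji/R, while in Jeko-1/R they stood at 0.05 as a bound and -0.16.

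**Figure D3:**
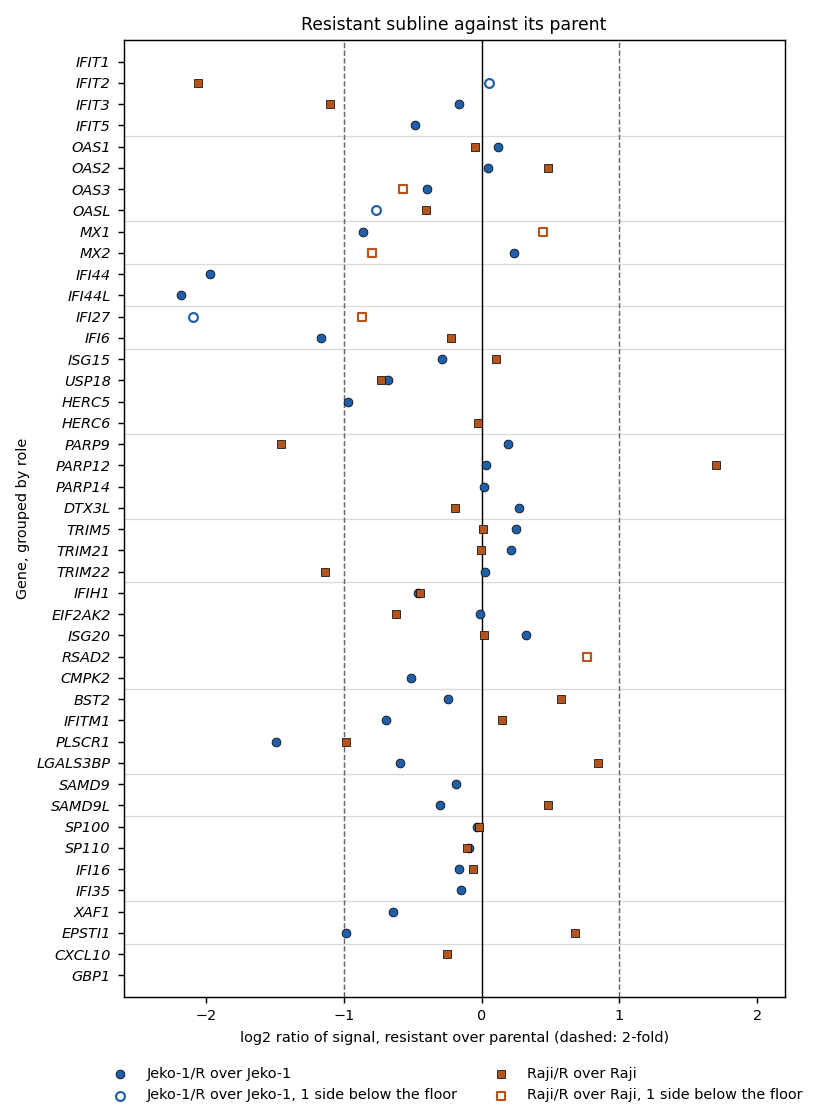
The horizontal axis gives the log2 ratio of the resistant array over the parental array for each gene, with blue circles for Jeko-1/R, orange squares for Raji/R, open symbols where 1 side was below the floor and dashed lines at 2-fold. The blue circles of IFI44L, IFI44, IFI27, PLSCR1 and IFI6 and the orange squares of IFIT2, PARP9, TRIM22 and IFIT3 lie left of the 2-fold line, and no gene has both symbols there, with the open square of IFI27 a bound.

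The pairs share no array and were then set side by side. With the floor at the median, 0 members were at least 2-fold lower in both sublines, of the 5 and the 4 lower in each. This count rests on the floor, which limits IFI27 in the Raji pair to a bound: IFI27 was at least 2-fold lower in both with quantile normalization, the lowess adjustment, a floor at the 25th percentile and a pseudocount. Of 30 members measured in both pairs, 12 were below 0 in both, 7 were below 0 in Jeko-1/R only, 7 in Raji/R only and 4 in neither. The same counts over all genes were not computed. Neither the 12 nor the 0 past 2-fold in both can therefore be read as a shared or a separate fall. PLSCR1 had -1.49 and -0.99, and its other measured probe set -0.87 and -1.37. The mean of its probe sets gave -0.39 and 0.10. That mean includes a further probe set below the floor on all 4 arrays, at 2.60 in Raji and 16.4 in Raji/R. USP18 stood at -0.68 and -0.73. The signals of IFI27 went from 331 to 55.1 and from 142 to 23.6. Of the genes lower in Raji/R, TRIM22 and PARP9 had 0.02 and 0.19 in Jeko-1/R. With 1 array a group the difference of the ratios between the lines has no test.

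The limma fit gave the mean effect of resistance over both lines. At an adjusted p of 0.05 it called 0 of 42 members and 0 of 15575 genes (0.0%). At an unadjusted p under 0.05 it gave 3 members and 324 genes, which is 2.08% of all genes. The 3 members were PLSCR1, with a log2 difference of -1.24 ± 0.26 (SE), IFI27, with -1.48 ± 0.34, and USP18, with -0.70 ± 0.24. The limma adjusted p was 0.97 for each of them, and each was lower in 2 of 2 sublines. The fit had 1 residual degree of freedom per gene.

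The members were read by 1 to 6 probe sets each, and the others served as a check on the brightest. In the Jeko-1 pair 24 other probe sets could be set beside the brightest one, and 14 had the same sign. In the Raji pair 24 were measured, 21 of them beside a measured brightest probe set, and 11 of these 21 had its sign. The 2 other probe sets measured for the 5 lower genes of the Jeko-1 pair, of IFI44 (-0.97 as a bound) and PLSCR1 (-0.87), were both lower. That of PLSCR1 did not pass 2-fold. That of IFI44 went from 152 to 54.5, below the floor, so its true difference may be larger than the ratio. IFI44L, IFI27 and IFI6 had 1 probe set each. In the Raji pair SP110 had -0.11 from its brightest probe set and 1.34 from another, and the probe sets of SP100 ranged from -0.87 to 0.87. For Jeko-1 against Raji, 21 other probe sets were measured among the 30 members past 2-fold. Of these, 17 had the same sign as the brightest, and 11 passed 2-fold in that direction.

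**Figure D4:**
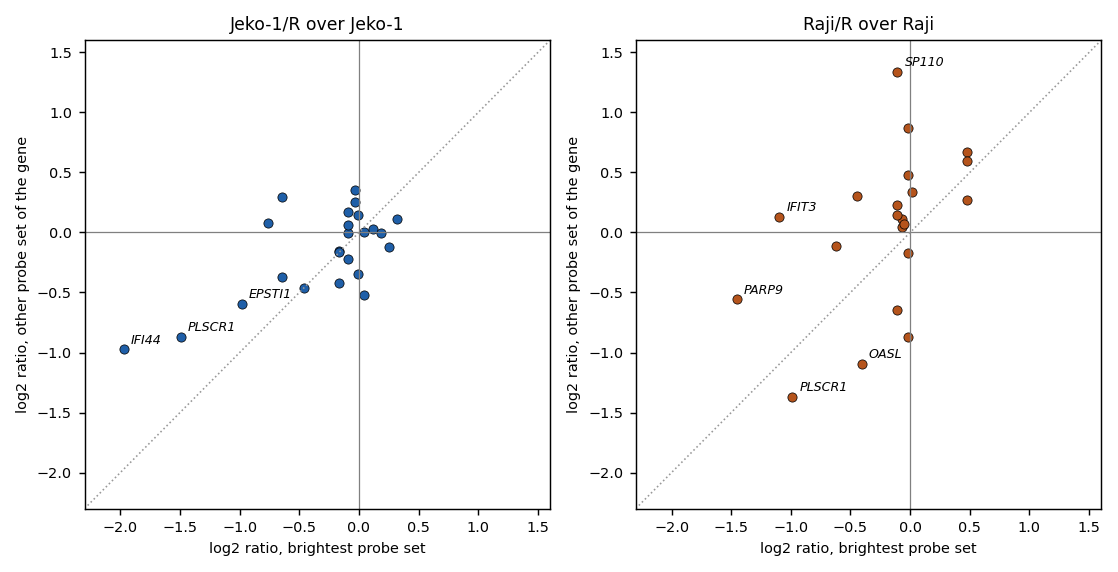
Each point is a probe set that was not the brightest of its gene, with its log2 ratio of resistant over parental signal on the vertical axis against that of the brightest probe set on the horizontal axis, and the dotted line marks equal values. In the Jeko-1 pair IFI44 and PLSCR1 lie at lower left with smaller ratios from the second probe set, which for IFI44 is a bound. In the Raji pair the points scatter more widely, with PLSCR1 and OASL lower and SP110 higher than its brightest probe set.

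Genes around the set were taken from lists chosen with earlier results of these data known. Among 39 measured interferon-response genes outside the set, 0 were at least 2-fold lower or higher in Jeko-1/R, and their log2 ratios ran from -0.68 to 0.68 with a median of -0.01. In Raji/R 44 could be measured, with a median of -0.04, 3 at least 2-fold lower and 4 at least 2-fold higher. The lower ones were RTP4, a chaperone of membrane receptors (at least 2.95-fold), IFITM3 (at least 2.53-fold) and the chemokine gene CXCL11 (-1.31). The higher ones were IFITM2 (at least 4.94-fold), PARP10 (1.61), the helicase gene HELZ2 (1.28) and TRANK1 (2.29-fold). IFITM2 and IFITM3 are close paralogs read by x_at probe sets, which may share transcripts, so their opposite ratios are uncertain.

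Upstream of the set, the genes of interferon receptors and signalling were within 2-fold between resistant and parental cells, with JAK2 the exception. In Jeko-1/R the 9 measured genes lay between -0.16 and 0.11, with IFNAR1 at -0.06, IFNAR2 at -0.16, JAK1 at -0.03, TYK2 at -0.06 and IRF9 at 0.00. In Raji/R these 5 had 0.22, -0.07, -0.03, 0.06 and 0.36, and JAK2, below the floor in Raji, was at least 2.33-fold higher. In the basal comparison all 9 measured genes of this list were lower in Jeko-1 than in Raji, 5 of them at least 2-fold, with IFNAR1 at -1.96 and IFNAR2 at -1.68. The regulatory factor IRF1 stood at -2.10 in that comparison and at 0.03 and -0.11 in the sublines, while IRF7, which drives interferon genes, had -0.59 in the mantle cell subline and -0.29 in the Burkitt one. IRF5 was at least 2.87-fold higher in Raji/R. Of 18 interferon ligand genes 0 reached the floor in Jeko-1 or Jeko-1/R, 1 did in Raji and 7 did in Raji/R. Of all genes 56.4%, 56.1%, 61.6% and 69.0% reached it on these arrays, so the ligand genes fell short of the background on each. The 7 read only 79.3 to 148 in Raji/R, and the part of the higher median of that array was not tested. IFNA7, IFNA14 and IFNA16 were read by x_at probe sets, which may share transcripts. At this floor 0 were 2-fold apart in the Raji pair, but all these ratios except that of IFNL2 are bounds. IFNG was at least 1.91-fold and IFNW1 at least 1.57-fold higher in Raji/R. Negative regulators held 1 gene at least 2-fold higher in Raji/R, SOCS3 (1.23), and nucleic acid sensing 3, CGAS (1.22), STING1 (at least 2.26-fold) and UNC93B1 (at least 2.82-fold).

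The labelled cell type was checked on marker genes. All 6 B-cell markers analysed, MS4A1, CD79A, CD79B, PAX5, CD22 and BLK, reached the floor on every array, with summed signals between 38652 and 51257. PAX5, which maintains B-cell identity, was 2.35-fold lower in Raji/R than in Raji. In the order parent then subline, Jeko-1 line first, 0, 1, 1 and 2 of 6 T-cell markers reached the floor, and of 6 myeloid markers 0, 1, 1 and 3, with summed signals of 125 to 408 and 159 to 783. Of 5 NK-cell markers 0, 0, 2 and 2 reached it, with NKG7 at 883 in Raji and 1749 in Raji/R. Of 5 markers of plasmacytoid dendritic cells, a cell type that makes much interferon, 1, 1, 2 and 3 reached it, and TCF4, which B cells also express, was the single one in the Jeko-1 arrays. CD3E, CD14, GNLY and IL3RA were below the floor on all 4 arrays. The part of other cells in the values above was not tested.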

How the data were processed

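Total RNA of 4 samples was hybridised to Affymetrix human genome arrays, 1 per group. The authors deposited log2 signals from MAS5, per the submitters' processing notes. Its version and any further step are not given in the sources used here. Base 2 was inferred, because it puts the trimmed mean signal of every array between 493 and 497. MAS5 scales each array by 1 factor, so shifts that depend on signal level remain. Detection calls were not used.

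Of 54613 probe sets, 41091 had a single gene symbol, 1801 several and 11721 none. Symbols were checked by gene ID against RefSeq (GRCh38.p14), with 41037 matched and 0 changed. A gene was its brightest probe set, lower values were raised to the pooled median (log2 6.28), and genes with at least 1 array of a pair at or above it were described, with 2-fold as changed. limma 3.58.1 in R 4.3.3 was fitted across all genes with cell line and resistance as terms, two-sided, with Benjamini-Hochberg adjustment. Parent and subline were paired by the cell line named in the labels. The labels describe no separate cultures of a group, so p-values measure only the spread between these arrays. The difference between lines among sublines was added after seeing the data.

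The members and gene lists were chosen with earlier results of these data known. Values on each array are given for members at least 2-fold apart in a resistant pair or at least 4-fold apart between Jeko-1 and Raji, and other members were described after their values were seen. From the other lists, genes at least 2-fold apart in a resistant pair and the main signalling genes are named. Steps were tested on simulated data and used Python 3.11.15, numpy 2.4.6, pandas 2.3.3 and statsmodels 0.14.6. Alternatives were quantile normalization, a lowess adjustment (fraction 0.3), floors at the 25th and 75th percentile, a pseudocount of 32, the mean of probe sets, no x_at or s_at probe sets, and choice by median signal. The mean was taken on log2 values before the floor was applied, and the brightest probe set was chosen again after quantile normalization.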

Additional observations from a re-analysis of the deposited data

Results flagged for a closer look

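Some members had resistant over parental ratios of opposite sign in the 2 lines, each larger than the spread between probe sets of a gene in its pair. EPSTI1 stood at -0.98 in the mantle cell subline and 0.68 in the Burkitt subline, a difference of -1.66 between the log2 ratios. LGALS3BP stood at -0.59 and 0.85, a difference of -1.44. With 1 array per group this difference was not tested. EPSTI1 was near the floor in Raji, at 79.6, and its other probe set was below the floor in both Raji arrays. LGALS3BP was read by 1 probe set.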

How the results depend on the processing

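With the floor at the 75th percentile, fewer members could be measured. Past 2-fold, 1 of 25 was then lower in the Jeko-1 pair, beside 0.204% of all genes. In the Raji pair 1 of 16 was lower and 0 higher, beside 1.1% and 0.678%. Higher in Jeko-1 than in Raji were 10 of 28, beside 23.5%, and 22 members passed the limma cell line term. With the floor at the 25th percentile 7 of 40 were lower and 4 higher in Raji/R, beside 8.8% and 17.4% of all genes. With a pseudocount 4 of 44 were higher there, beside 11.8% of all genes. With the mean of probe sets 2 of 29 were lower in Raji/R, beside 2.84% of all genes. Lower in Jeko-1 than in Raji were 7 of 39, beside 22.7%. Without x_at and s_at probe sets 3 of 29 were lower in Jeko-1/R, beside 0.485% of all genes. In Raji/R 0 of 25 were higher, beside 7.47%. Higher in Jeko-1 than in Raji were 12 of 31, beside 24.8%, and 21 members passed the cell line term. The cause of these shifts was not tested. When the sublines replaced the parents, a choice made after seeing the data, the Jeko-1 over Raji log2 ratio of IFIT2 reversed, from -2.06 to 0.049. In the resistance fit the median member difference was -0.18, and it ran from -0.24 to -0.07 when 1 line was left out, with no test. Without cell line as a replicate block limma called 0 members for resistance, and without state as a block 28 members (of 42) and 8175 genes for cell line. The Raji pair median of members turned from -0.07 to 0.01 with the mean of probe sets, and the Jeko-1 pair median went from -0.24 to -0.07 under the highest floor tried. All other counts of members past 2-fold in a single comparison stayed within 1.5 times their value under the alternatives run. So did the other counts of members and of all genes past a limma adjusted p of 0.05. Counts of all genes past 2-fold moved more. Those lower in Jeko-1/R went from 69 to 723 under the lowest floor tried and to 16 under the highest. Those higher in Raji/R went from 1026 to 3194 and 53 under the same floors. With 1 array per group, no error between cultures could be given.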
